A study of Mus musculus with 6 samples.

Results

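The regions described here are stretches of chromatin that gave an ATAC-seq peak in every library of the series and that lie deep inside protein-coding genes of the mouse. Peaks of the 6 deposited lists on chromosomes 1 to 19 and X were merged wherever they overlapped by at least 1 bp, which gave 134151 regions. Of these, 56599 held a peak in all 6 libraries, and 15739 of the 56599 (27.8%, and 11.7% of all merged regions) had their midpoint inside a protein-coding RefSeq gene and more than 10 kb from every end of any such gene. They are called deep regions below. They were chosen by the presence of a peak in each library and by position, so both are a description and not a result.

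The study measured open chromatin in CD8+ T cells that had been isolated from mouse spleen by negative selection. The cells were activated with antibodies to CD3 (5 µg/mL) and CD28 (1 µg/mL) and then shared medium with tumour cells for 48 h across a membrane with 0.4 µm pores, T cells below and tumour cells above. The tumour cells came from lung adenocarcinoma resistant to PD-1 and were either Res-shFabp7, in which a short hairpin RNA targets Fabp7, a fatty acid binding protein, or their control Res-ctrl. Each co-culture had 3 libraries, which the labels name as biological replicates. All 6 libraries came from activated T cells exposed to resistant tumour cells, so neither group is a resting T cell or a culture without tumour cells. The knockdown was made in the tumour cells, and the T cell libraries therefore hold no check of it. Strain, sex and age of the mice, the sequence of the hairpin and the number of tumour cell clones were not given in the sources used here.

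In ATAC-seq a transposase cuts DNA where nucleosomes and other proteins leave it exposed, and cut fragments pile up over such sites. Open sites near gene starts are mostly promoters and are often shared between cell types, whereas open sites inside long genes include enhancers, silencers, boundary elements and alternative promoters, and are often specific to a lineage. In T cells, enhancers in introns are known for genes such as Bcl11b, Runx1 and Ets1, whose products set and keep T cell identity.

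A small subset of the deep regions coincided with an annotated gene start, usually that of a shorter form of the gene that contains it. RefSeq start windows, from 250 bases before to 50 bases after a start, overlapped 516 deep regions (3.28%). In 409 of the 516 the start belonged to the host gene and in 134 to another gene, with some regions in both counts. The 250 bases before the start are shown for 6 of them, chosen to cover the tallest deep region of the series (Hdac4), a pair whose peak height was lower with Res-shFabp7 (Por and Nfatc2), and internal starts of 3 genes of T cell identity and signalling (Runx1, Runx3 and Lck). The sequences are from RefSeq, build GRCm38.p6, whose primary assembly is that of mm10, and run from 5′ to 3′ on the strand of the gene. Capitals mark matches on either strand to the short motifs searched. The motif of SP factors, which bind GC-rich promoters, was spelled GGGCGGG. The motif named CCAAT box after its own letters is bound by NF-Y. That of the insulator protein CTCF was spelled AGGNGGC, with any base at N. For ETS factors the second of the spellings searched, AGGAAGT, occurred here. For E-box proteins the second spelling, CAGGTG, occurred too. Motifs of AP-1, RUNX, TCF/LEF, NFAT, T-box, CRE and IRF factors were searched as well and matched none of the 6 sequences. Of these, NFAT was spelled TGGAAAA and RUNX was spelled TGTGGTT, TCF/LEF factors had the spelling CTTTGAA, and for AP-1 it was TGANTCA with any base at N. The first spelling for ETS was CCGGAAG.
Hdac4: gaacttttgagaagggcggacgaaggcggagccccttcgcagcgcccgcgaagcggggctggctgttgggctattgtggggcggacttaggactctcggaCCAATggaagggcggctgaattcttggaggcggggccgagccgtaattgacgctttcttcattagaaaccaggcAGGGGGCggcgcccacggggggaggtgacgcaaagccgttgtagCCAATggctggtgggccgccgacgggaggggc
Por: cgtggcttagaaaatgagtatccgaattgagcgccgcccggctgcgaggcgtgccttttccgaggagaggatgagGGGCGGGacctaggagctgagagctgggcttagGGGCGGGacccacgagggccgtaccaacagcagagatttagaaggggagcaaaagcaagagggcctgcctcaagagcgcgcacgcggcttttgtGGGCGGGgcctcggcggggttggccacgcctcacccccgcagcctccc
Nfatc2: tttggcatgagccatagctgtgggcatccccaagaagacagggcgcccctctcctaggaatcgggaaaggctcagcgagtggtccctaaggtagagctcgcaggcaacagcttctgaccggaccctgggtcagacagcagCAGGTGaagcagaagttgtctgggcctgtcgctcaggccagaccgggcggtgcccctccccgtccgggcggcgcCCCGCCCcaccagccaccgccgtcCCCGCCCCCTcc
Runx1: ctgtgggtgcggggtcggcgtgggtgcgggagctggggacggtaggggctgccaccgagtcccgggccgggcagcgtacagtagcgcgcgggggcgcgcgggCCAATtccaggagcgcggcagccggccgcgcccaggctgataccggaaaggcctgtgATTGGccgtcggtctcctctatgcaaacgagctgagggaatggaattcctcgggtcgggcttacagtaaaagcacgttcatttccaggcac
Runx3: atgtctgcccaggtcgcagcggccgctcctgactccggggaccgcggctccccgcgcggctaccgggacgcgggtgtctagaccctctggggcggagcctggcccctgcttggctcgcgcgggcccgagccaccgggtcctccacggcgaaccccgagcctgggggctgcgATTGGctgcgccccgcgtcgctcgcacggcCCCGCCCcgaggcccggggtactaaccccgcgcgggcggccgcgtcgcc
Lck: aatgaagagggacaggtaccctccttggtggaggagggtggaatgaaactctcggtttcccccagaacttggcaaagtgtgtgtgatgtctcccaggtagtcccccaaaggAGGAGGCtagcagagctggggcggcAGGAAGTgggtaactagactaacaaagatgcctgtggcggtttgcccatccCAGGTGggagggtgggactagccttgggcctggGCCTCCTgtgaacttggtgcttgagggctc

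The Hdac4 sequence lay at chr1:92180342-92180591 on the minus strand and the Por sequence at chr5:135688895-135689144 on the plus strand. Those of Nfatc2, Runx1 and Lck were at chr2:168590366-168590615, chr16:92697330-92697579 and chr4:129558373-129558622, all on the minus strand, and that of Runx3 was at chr4:135152295-135152544 on the plus strand. The sequences differed in how many CpG dinucleotides they held, from 3 in Lck, the kinase that starts T cell receptor signalling, to 38 in Runx3, which directs CD8 T cell fate. The 3 matches in Por were all to the SP motif, and the matches of the Lck sequence included ETS and E-box letters and none of the SP or CCAAT letters. In Nfatc2 an SP match and a CTCF match overlapped. A match to a motif is a description of the letters, not of binding.

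Over the 583 start windows that overlapped a deep region, the median GC content was 58.7% and the median number of CpG dinucleotides was 13. The 2464 deep start windows with no peak in any library had a median GC content of 48.0% and 4 CpG dinucleotides, and all 32619 start windows of the reference had 53.0% and 7. The SP letters were present in 40.3% of the windows at deep regions, 7.14% of the deep windows without a peak and 25.7% of all windows. The corresponding shares were 14.4%, 8.24% and 9.38% for ETS in its second form and 39.8%, 19.7% and 29.4% for CTCF. The CCAAT box and the NFAT, RUNX and TCF/LEF motifs were less frequent at deep regions than in both other sets. The shares were 32.1%, 35.1% and 37.6% for the CCAAT box, 3.77%, 8.85% and 6.77% for NFAT, 4.63%, 6.74% and 5.29% for RUNX, and 3.77%, 5.28% and 5.14% for TCF/LEF. For AP-1 they were 8.40%, 9.21% and 7.85%. More frequent at deep regions than in both other sets was the E-box, in its second form (23.5%, 21.5% and 20.3%) and its first (21.6%, 19.6% and 16.4%). The same held for T-box (4.97%, 4.59% and 3.98%), CRE (4.97%, 1.26% and 3.23%) and IRF (6.86%, 5.4% and 5.98%). ETS in its first form gave 8.06%, 2.35% and 8.92%. These shares describe start windows only, since the sequence of the other deep regions was not used here.

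Deep regions at an annotated start had taller peaks than the other deep regions. The height of a peak is given here as its summit pileup, taken here as the number of fragments that cover the summit. The deposited pileups are whole numbers in all 6 lists and so are not scaled for depth, but whether fragments or reads were piled up was not stated in the labels or headers. The median pileup ranged over the 6 libraries from 53 to 85 for deep regions with a start and from 22 to 37 for those without. The difference of the medians was 1.23 ± 0.108 on the log2 scale (SD over 6 libraries, higher in 6 of 6; exact sign-flip permutation test over libraries, two-sided p = 0.03125, the smallest that 6 libraries allow). Of the 3250 start windows that lay in deep gene sequence, 786 overlapped a merged region of any kind and 581 a deep region present in all libraries.

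The libraries differed in depth in a way that bears on all heights. The lists held 100243 to 105796 peaks for Res-shFabp7 and 82153 to 96310 for Res-ctrl, from sequencing that the labels give as 35 to 75 M read pairs per sample. The background pileup that the peak caller worked with was 1.03, 0.868 and 0.959 in the Res-shFabp7 libraries and 0.709, 0.608 and 1.01 in the Res-ctrl libraries, so Res-ctrl replicates 1 and 2 stood apart from the other 4. Marker genes of CD8 T cells had a region open in all 6 libraries within 10 kb in 10 of 10 cases, among them Cd3e, Cd8a and Cd8b1. Such a region was also near 4 of 5 B cell markers (not Ms4a1), 3 of 5 myeloid markers (not Csf1r or Adgre1), 1 of 3 NK cell markers, 3 of 5 epithelial markers (not Krt18 or Nkx2-1), and 3 of 3 markers of CD4 and regulatory T cells. An open region near a gene is not a measure of its expression, and the part of other cells in the results was not tested.

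Deep regions were short and low compared with open regions at gene ends. Their median peak pileup (replicates 1 to 3 in each group) came to 37, 33 and 36 in the Res-shFabp7 libraries and 24, 22 and 36 in the controls, against 93, 89 and 91 and 77, 66 and 102 at the 13774 regions within 1 kb of a gene end. The deep median was lower in 6 of 6 libraries, by 1.48 ± 0.140 on the log2 scale (SD over 6 libraries; exact sign-flip test, two-sided p = 0.03125), a ratio of 0.359. The median peak width at deep regions was 206 to 250 bp and at gene ends 365 to 437 bp. That difference was -181 ± 11.7 bp and had the same sign in 6 of 6 libraries (exact sign-flip test, p = 0.03125). The plot of height and width by library shows that both gaps were present in the shallower libraries too.

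**Figure D1:**
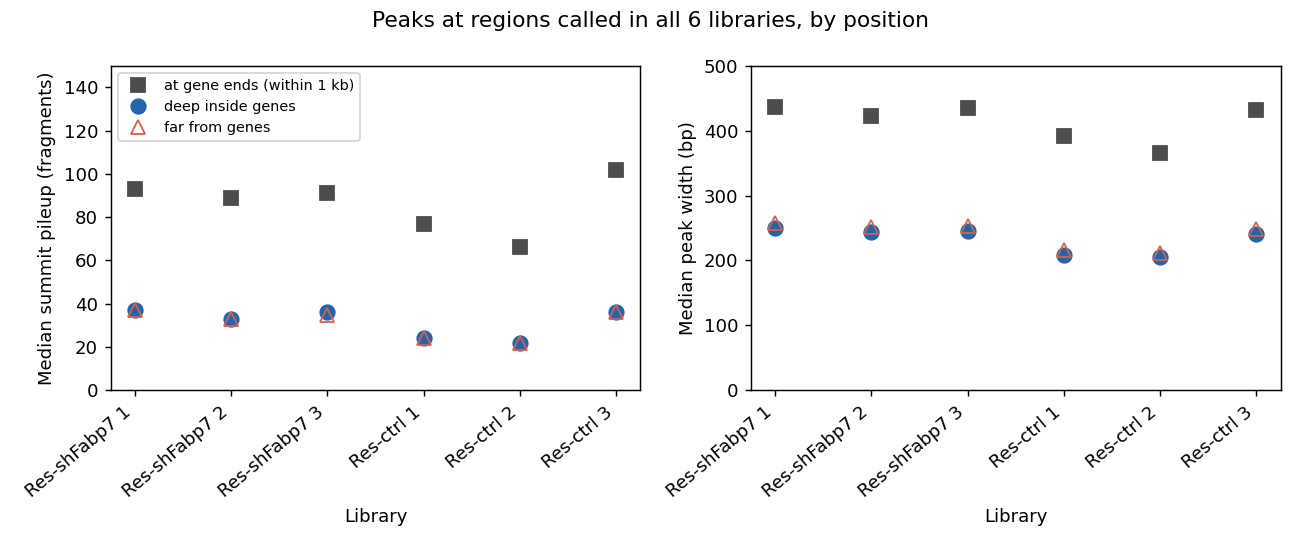
Median summit pileup in fragments (left) and median peak width in bp (right) of each library at regions open in all 6 libraries, by position: at gene ends, deep inside genes, or far from genes. The deep medians lie at 22 to 37 fragments, on top of the far medians, and the gene-end medians at 66 to 102.

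Against the 11399 regions outside genes whose midpoint was more than 10 kb from every gene end, deep regions had peaks of similar size. Far regions had a median pileup of 37, 33 and 35 in the Res-shFabp7 libraries and 24, 22 and 36 in the controls. The difference, deep minus far, was 0.00677 ± 0.0166 on the log2 scale (SD, n = 6 libraries; exact sign-flip test, p = 1.0), from 0.0 to 0.04, since the medians were equal in 5 of the 6 libraries. Measured instead by the authors' fold over background, deep regions were lower than far regions in 6 of 6 libraries, by 0.0998 on the log2 scale (exact sign-flip test, p = 0.03125). Peak widths were 7.0 ± 1.1 bp smaller at deep than at far regions (SD, n = 6 libraries; p = 0.03125, exact sign-flip test).

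The deep regions were mostly simple sites with a stable summit. In 12633 of the 15739 (80.3%) each library had exactly 1 peak, and the merged regions had a median length of 321 bp, from 87 to 1807 bp. Over the 6 libraries the summits of a region spanned a median of 55 bp (quartiles 27 and 99 bp), the same median as at far regions and more than the 33 bp at gene ends. The spread narrowed with height: over 5 equal classes of deep regions by mean height, the median went from 77 bp in the lowest to 29 bp in the highest. Taken 2 libraries at a time, the median distance between summits was 12 to 17 bp for pairs within a group and 12 to 15 bp for pairs across groups, so the ranges overlapped. The plot of summit spread gives the quartiles for each class.

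**Figure D2:**
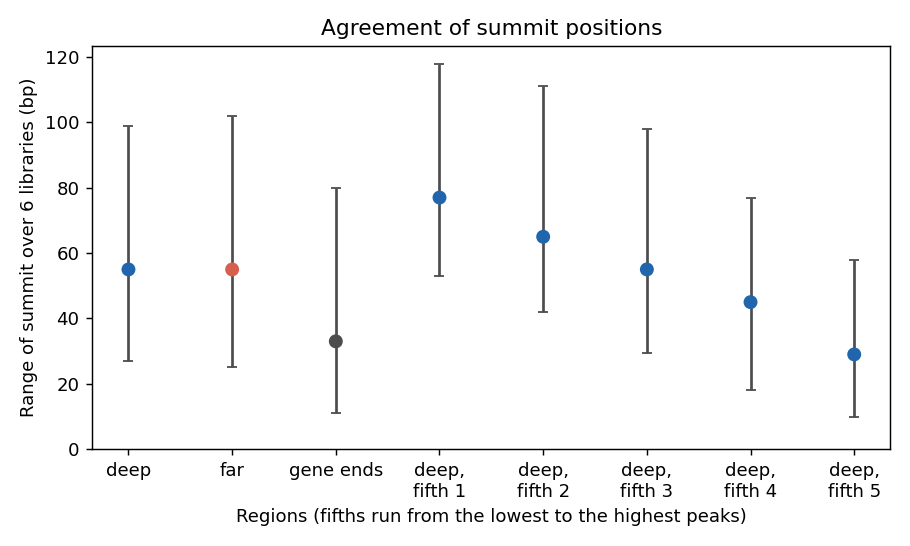
Range of the summit position over the 6 libraries, in bp, for deep, far and gene-end regions and for 5 equal classes of the deep regions by mean height. Points are medians and bars run from the lower to the upper quartile. The median falls from 77 bp in the lowest class to 29 bp in the highest.

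The bound on distance from gene ends did not coincide with a step in height. In genes, the 636 regions with the midpoint 10 to 11 kb from the nearest gene end had median pileups of 26 to 41 over the libraries, and the 734 regions at 9 to 10 kb, just outside the bound, had 24 to 40. The other bound, a peak in all 6 libraries, separated higher from lower peaks. The 3757 deep regions with a peak in 5 of 6 libraries had median pileups of 10 to 16 where a peak was called, and the library that lacked the peak was Res-ctrl replicate 2 in 1585 cases and replicate 1 in 1261, against 201 to 253 for each of the other 4. Before the requirement on libraries, 42766 merged regions lay deep inside genes, of which 36.8% were in all 6 libraries and 25.9% in 1 alone. At gene ends 60.0% of merged regions were in all 6 libraries.

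Deep regions were spread over many genes but concentrated in a minority of them. Of 21631 protein-coding genes, 9823 were long enough to have sequence more than 10 kb from any gene end, called deep sequence here, which added up to 735.5 Mb. A deep region was present in 3963 of them (40.3%), with a median of 2, and 1515 genes had exactly 1. The 389 genes with 10 or more held 6448 deep regions (41.0%), and 91 genes had 20 or more. Deep regions covered 0.792% of the deep sequence, at 21.4 per Mb. Neighbouring deep regions of the same gene lay a median of 5.54 kb apart, and 27.8% of 11803 neighbouring pairs were under 2 kb apart.

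Genes with 100 to 300 kb of deep sequence were the most often occupied. The share of genes with a deep region rose from 13.6% of those with under 10 kb of deep sequence to 62.3% of those with 100 to 300 kb, and was 47.9% above 300 kb. Per Mb of deep sequence the density was 38.4 in the shortest of these classes and 7.39 in the longest. Density also depended on position along the gene, as the plot of density by distance shows. It was 38.0 per Mb at 10 to 20 kb from the 5′ end and fell at every further step to 7.85 beyond 200 kb. From the 3′ end it was 28.8 per Mb at 10 to 20 kb, 31.2 at 30 to 50 kb and 8.16 beyond 200 kb. These densities are over the 12570 deep regions in a gene with a clear strand and no overlapping gene, and the bins at long distances hold only the longest genes.

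**Figure D3:**
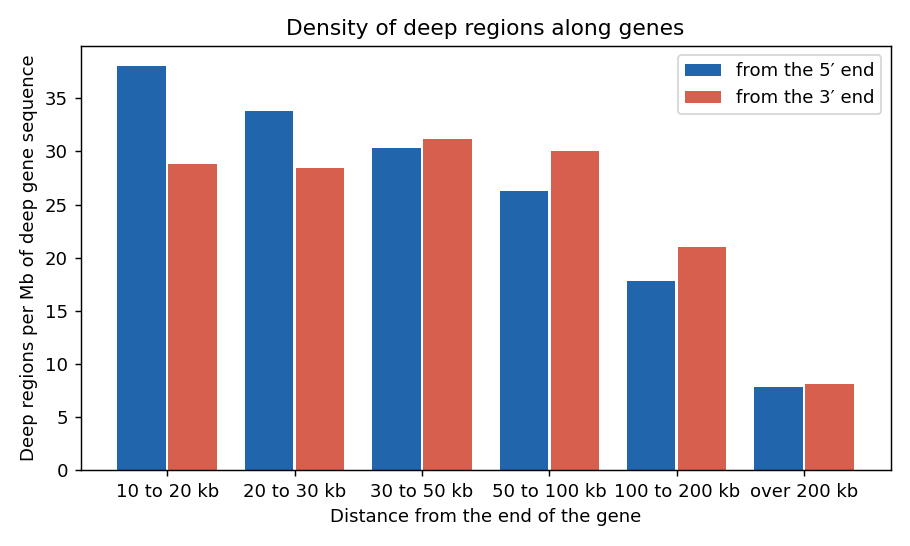
Deep regions per Mb of deep gene sequence by distance from the 5′ end (blue) and the 3′ end (red) of the gene, in kb. From the 5′ end the density falls from 38.0 at 10 to 20 kb to 7.85 beyond 200 kb. The bars starting at the 3′ end stay between 28.5 and 31.2 up to 100 kb.

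The longest distance from any gene end was 773.1 kb, for chr14:10323082-10323307 in Fhit, a tumour suppressor at a fragile site. Its summit was covered by 33, 27 and 27 fragments in the Res-shFabp7 libraries and 12, 16 and 27 in the controls. By chromosome, density ran from 17.7 per Mb on chromosome 1 to 34.2 on chromosome 11, with 22.0 over all autosomes. The X chromosome had 274 deep regions and 8.23 per Mb, 0.374 of the autosomal value. Its deep peaks were also lower, with median pileups of 30, 28 and 30 with Res-shFabp7 and 20, 18 and 29 with Res-ctrl, against 37, 34 and 36 and 24, 22 and 36 on the autosomes.

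Transcription factors of T cell identity were among the genes with the most deep regions. Foxp1, a repressor that keeps T cells quiescent, had the most of all genes, 87 in 577.4 kb of deep sequence. Bach2, which restrains effector differentiation, had 57, and Ets1, a factor needed for T cell survival, had 33 in 101.6 kb. Other leading genes were Inpp4b (61), a lipid phosphatase of the PI3K pathway, Akap13 (43), Asap1 (40), Sh3kbp1 (38), Lpp (37), Rere (37), Maml2 (36), Wwox (36), Atxn1 (35), Ripor2 (35), Sgms1 (35) and Thada (33). Part of these counts went with length: Wwox, with 893.1 kb of deep sequence, had 4.03 deep regions per 100 kb, against 32.5 in Ets1.

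Per length of deep sequence the order of genes changed. Among genes with at least 10 deep regions, Sla, an adaptor that dampens T cell receptor signals and that lies inside Tg, had 45.1 per 100 kb of deep sequence. Bcl11b, the factor that commits cells to the T lineage, had 32.5 per 100 kb, and Ikzf1 had 30.9. Prkcq, the protein kinase C isoform of the T cell synapse, held 32 deep regions, or 29.3 per 100 kb. Others among the densest 10 were Sfi1 (34.2), Fam107b (33.1), Myh9 (30.8), Plec (29.7) and Tspan14 (29.5). The values of Sfi1 are reported as uncertain, since whether its reads map to it alone was not tested.

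Lists of genes by function differed widely in density. The list of 32 T cell transcription factors had deep regions in 30 genes, 558 in all, or 119 per Mb of deep sequence. Beyond Foxp1, Bach2 and Ets1 its members included Rora (28), Runx1 (26), Tox (25), Bcl11b (24), Ikzf1 (21), Stat4 (19), Lef1 (18), Satb1 (9), Runx3 (8) and Tcf7 (5), and none lay in Zeb2 or Myb. Genes of T cell receptor and costimulatory signalling had 356 in 28 of 29 genes with deep sequence (99.3 per Mb), among them Prkch (32), Fyn (30), Cblb (23), Camk4 (19) and Cd247 (18). Genes for cytokine receptors and their signalling had 106 in 12 of 14 genes (159 per Mb), led by Jak1 (24), Tgfbr3 (23), Smad3 (15) and Tgfbr2 (15).

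Apoptosis genes had 48 deep regions in 9 of 12 genes (109 per Mb), and 26 of the 48 were in Bcl2, the survival factor. Chromatin modifiers had 184 in 21 of 22 genes (77.6 per Mb), with 28 in Hdac4 and 27 in Arid1b. Adhesion and migration genes had 61 in 11 of 11 (57.1 per Mb), and circadian clock genes 53 in 8 of 12 (44.3 per Mb), of which 28 were in Rora. Densities below the value of 21.4 per Mb for all deep sequence were found for genes of fatty acid, iron and ferroptosis metabolism (18.3 per Mb, 17 regions in 8 of 16 genes), B cell genes (16.8 per Mb, 17 in 7 of 9) and myeloid genes (8.81 per Mb, 6 in 3 of 7). The 20 long neuronal genes had 13 deep regions in 26.32 Mb (0.494 per Mb): 5 in Nrxn3, 4 in Magi2 and 1 each in Cntnap2, Dlg2, Cdh13 and Robo1. Lrp1b, with 2038.3 kb of deep sequence, had none. The plot of deep regions by gene length separates these lists.

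**Figure D4:**
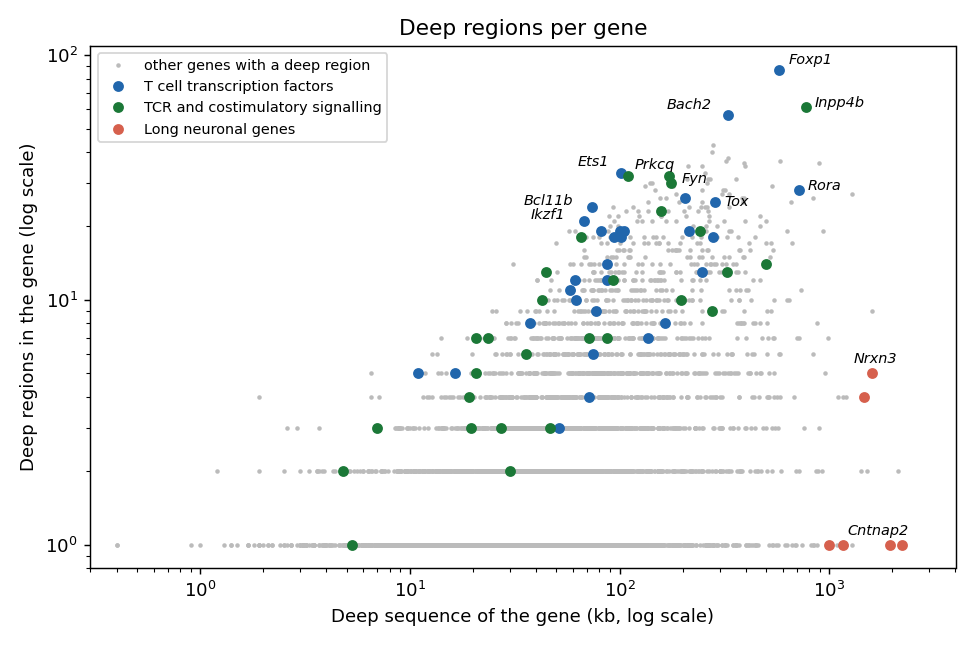
Deep regions per gene against the length of its deep sequence in kb, both on log scales, for genes with at least 1. Among the T cell transcription factors (blue) and signalling genes (green), Foxp1 has the most, 87, and long neuronal genes (red) hold 5 at most.

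Of the 10 tallest deep regions, 8 did not pass the test between groups. The tallest was chr1:92180055-92180703 in Hdac4, a class IIa histone deacetylase, at the internal start printed above. It had 598, 601 and 588 fragments in the Res-shFabp7 libraries and 490, 429 and 639 in the controls, and its normalised height differed by 0.01 ± 0.05 on the log2 scale (SE; limma adjusted p = 0.917). Others of the top 10 by within-library rank were in Arhgap26, Rps6ka2, Iffo2, Ptk2b, Agpat3, Sfi1, Stk25 and Zfp607b. The lowest percentile that any of the 10 had in any library, among the common regions by height, was 99.3. Of the 10, Sfi1 (log2 difference 0.23, adjusted p = 0.0137, with the same doubt on its reads) and Iffo2 (-0.19, adjusted p = 0.0466) passed the limma test described below.

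The widest deep peaks had a median width of 1090.5 to 1394 bp. The widest was in Epc1, a subunit of the NuA4 acetyltransferase, followed by Cd247, the zeta chain of the T cell receptor complex. The Cd247 region, chr1:165844372-165845696, had pileups of 134, 110 and 131 with Res-shFabp7 and 141, 86 and 131 with Res-ctrl. The others were in Acaca, Baz1a, Arhgef3, Cdyl, Smco4, Sertad2, Slc39a10 and Prr5l. None of these 10 passed the test between groups, with adjusted p from 0.0628 to 0.991 (limma).

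Within single genes the deep regions ranged widely in height. In Ikzf1, whose product Ikaros is a regulator of lymphoid development, the 21 deep regions ran from the 27.3rd to the 98.7th percentile of all common regions, taking for each the lowest percentile over the 6 libraries. Its tallest, chr11:11725403-11726583, 41.0 kb from the 5′ end, had pileups of 371, 356 and 423 with Res-shFabp7 and 281, 302 and 426 with Res-ctrl. The tallest in Bach2, chr4:32290865-32291996, gave 316, 300 and 341 and 262, 254 and 361, and the tallest in Prkcq, chr2:11218090-11218629, gave 340, 306 and 321 and 242, 225 and 346. In these 3 regions Res-ctrl replicate 3 was the highest library of all, and none passed the test (limma adjusted p = 0.918, 0.738 and 0.608). In Bcl11b the tallest, chr12:107992954-107993384, gave 175, 190 and 189 and 138, 117 and 182, without passing either (adjusted p = 0.394, limma).

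Bcl11b, Ikzf1, Tox, Runx3, Camk4 and Cblb, 6 of the 12 genes followed whatever their values, had no deep region that passed the test. In Runx3 the region at the internal start printed above, chr4:135152173-135152696, gave 84, 91 and 60 with Res-shFabp7 and 64, 47 and 99 with Res-ctrl (log2 difference -0.06 ± 0.16, SE, adjusted p = 0.878, limma). The corresponding region of Runx1, chr16:92697184-92697686, gave 90, 78 and 86 and 47, 52 and 92 (0.21, adjusted p = 0.471). That of Lck, chr4:129558221-129558934, gave 139, 137 and 147 and 98, 84 and 123 (0.26, adjusted p = 0.180). Groups overlapped in pileup in Runx3 and Runx1 and did not in Lck.

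To compare the co-cultures, the log2 pileup of all 56599 common regions was quantile-normalised and tested with limma, and p-values were adjusted over all of them by the Benjamini-Hochberg method. Of the 15739 deep regions, 630 were higher with Res-shFabp7 and 164 lower at an adjusted p under 0.05. These are 4.0% and 1.04% of deep regions, against background shares of 3.13% higher and 1.4% lower among all common regions (4.53% in either direction). At gene ends 135 were higher and 264 lower, and among far regions 522 were higher and 168 lower. As shares called in either direction these were 2.9% at gene ends and 6.05% among far regions, beside 5.04% of deep regions. The differences between these splits were not tested. The median difference over all deep regions was 0.03 on the log2 scale, against -0.01 over all common regions.

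The excess of higher over lower calls depended on the scaling. Normalised over the deep regions alone, 469 were higher and 251 lower, and with medians centred in place of quantile normalisation 703 were higher and 289 lower. With the authors' fold over background, which divides by the local background of each library, limma called 0 deep regions (2423 had an unadjusted p under 0.05, and the smallest adjusted p was 0.0509). The groups did not overlap in normalised height in 600 of the 630 higher and 158 of the 164 lower regions. In the raw pileup they did not overlap in 539 and 43, and in the fold in 475 and 105. The regions were called from these same heights, so the choice itself favours separation of the groups. The share of all deep regions with the groups apart is not given here. Res-ctrl replicate 3, the control library of similar depth to the Res-shFabp7 libraries, was below all 3 of them in 605 of the 630 and above all in 159 of the 164. These 2 counts are not separate support, since replicate 3 was part of the fit that chose the regions. Without Res-ctrl replicates 1 and 2 no deep region passed (1592 had an unadjusted p under 0.05), in a fit with 1 control library whose spread is taken from the other group. The number called was 193, 427 and 303 without Res-shFabp7 replicates 1, 2 and 3 in turn, 347 and 501 without Res-ctrl replicates 1 and 2, and 958 without Res-ctrl replicate 3.

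The differences called were mostly modest. Their absolute size had a median of 0.74 on the log2 scale, from 0.19 to 1.74, and 107 of the 794 exceeded 1. More calls fell among taller regions: 47 higher and 16 lower in the lowest of 5 equal classes by height, and 191 and 39 in the highest. Calls were spread over 507 genes with a higher and 146 with a lower region, 30 genes with both.

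The most clearly higher deep region was chr16:52292483-52293076 in Alcam, 160.3 kb from its 5′ end. Alcam encodes CD166, the adhesion ligand of CD6 on T cells. Its summit had 97, 86 and 109 fragments with Res-shFabp7 and 33, 33 and 50 with Res-ctrl. Every Res-shFabp7 library was above every control, which in normalised height was a condition for naming the region. The normalised height was 6.47 ± 0.148 against 5.40 ± 0.0575 (SD, n = 3 each), a log2 difference of 1.07 ± 0.16 (SE; limma adjusted p = 4.71e-05), or 2.10-fold.

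The second was chr3:65793401-65794097 in Lekr1, with 101, 68 and 90 against 22, 25 and 48 fragments and a log2 difference of 1.21 ± 0.18 (SE; limma adjusted p = 4.71e-05). The largest fold was at chr10:89589821-89590408 in Slc17a8, a vesicular glutamate transporter gene. It had 41, 33 and 38 fragments with Res-shFabp7 and 9, 6 and 12 with Res-ctrl, a low peak in every control, and a log2 difference of 1.74 ± 0.26 (adjusted p = 5.38e-05, limma). In Itpr1, which encodes a calcium channel of the endoplasmic reticulum, chr6:108448060-108448695 had 71, 72 and 83 against 24, 21 and 35 fragments (1.20 ± 0.18, SE; limma adjusted p = 5.50e-05). Here too the groups were apart, as the rule for naming these regions required of the normalised heights.

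Another pair of these regions was taller. In Cfdp1, chr8:111821208-111821700 had 203, 182 and 182 fragments with Res-shFabp7 and 97, 82 and 123 with Res-ctrl (log2 difference 0.71 ± 0.11, SE; limma adjusted p = 4.77e-05). In Sik3, a salt-inducible kinase, chr9:46083371-46083972 had 192, 162 and 188 against 82, 79 and 140 (0.67 ± 0.11, SE; limma adjusted p = 0.000105). The remaining 4 of the 10 higher regions with the smallest p were in Akap6, Tex14, Mosmo and Mob3b, with log2 differences of 0.60 to 1.26. In all 10 regions the groups did not overlap in raw pileup. The raw pileup is not separate support, since the normalised heights that chose the regions were computed from it. It is also not scaled for depth, and Res-ctrl replicates 1 and 2 were the shallower libraries. The normalised heights of the 10 regions are in the plot of named regions.

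In 8 of the 10 lower regions with the smallest p the raw pileup was higher in every control library than in every Res-shFabp7 library. This included the 2 shallow controls. The exceptions were Sergef and Rarg. As above, the raw pileup is not separate support, since the normalised heights that chose the regions were computed from it. In Sergef, chr7:46607105-46607345 had 109, 80 and 83 fragments with Res-shFabp7 and 115, 106 and 187 with Res-ctrl, and the normalised height was 6.36 ± 0.212 against 7.15 ± 0.125 (SD, n = 3 each). The log2 difference was -0.79 ± 0.12 (SE; limma adjusted p = 6.37e-05). In Wwox, an oxidoreductase gene at a fragile site, chr8:114803197-114803506 had 57, 33 and 52 against 70, 67 and 103 (-1.06 ± 0.17, SE; limma adjusted p = 9.76e-05).

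Others of the 10 lower regions were in Dnm3, Trpm1, Vgll4, Rarg, Mtmr10, Mdm4 and Dusp22. Mdm4, an inhibitor of p53, had 29, 32 and 26 fragments with Res-shFabp7 and 42, 40 and 59 with Res-ctrl at chr1:133020184-133020414, 10.3 kb from its 5′ end (-1.03 ± 0.20, SE; limma adjusted p = 0.00120). Rarg, a retinoic acid receptor, had 147, 161 and 166 against 171, 165 and 248 at chr15:102246091-102246676, where 1 Res-shFabp7 library exceeded 1 control in pileup (-0.49 ± 0.10, SE; limma adjusted p = 0.000943). The 10 lower regions had median peak widths of 212.5 to 477.5 bp and the 10 higher regions 423 to 824 bp.

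**Figure D5:**
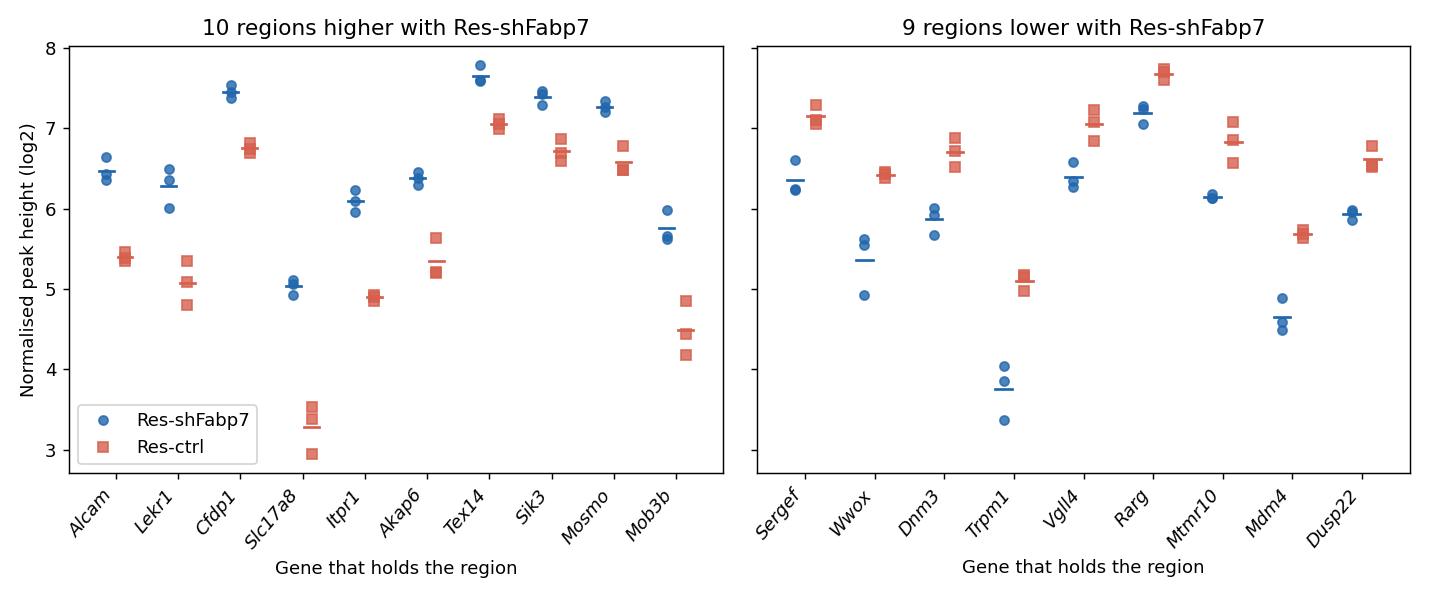
Quantile-normalised log2 peak height of each library at the 10 higher (left) and 9 of the 10 lower (right) deep regions with the smallest p among those whose groups do not overlap, named by gene. Points are libraries and bars are group means (n = 3 each). Differences range from 0.60 to 1.74 on the left and from -1.34 to -0.49 on the right.

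Of the 516 deep regions at annotated starts 10 were higher (1.94%) and 8 lower (1.55%), beside the 3.13% and 1.4% of all common regions. The region at the internal start of Por, the reductase that feeds electrons to cytochrome P450 enzymes, was chr5:135688729-135689416, with 336, 309 and 304 fragments against 347, 285 and 395. Its log2 difference was -0.29 ± 0.07 (SE; limma adjusted p = 0.00783), although the pileups of the groups overlapped. A second region of Por, chr5:135702625-135703293, was called in the other direction, with 220, 190 and 193 against 137, 126 and 157 (0.32, limma adjusted p = 0.0465). At the internal start of Nfatc2, a calcium-dependent factor of T cell activation, chr2:168589922-168590472 had 73, 75 and 59 against 68, 77 and 110 fragments (-0.55 ± 0.15, SE; limma adjusted p = 0.0184). The pileups of the groups overlapped here too. A taller deep region at the same start, chr2:168590559-168590989, was not called, with 102, 114 and 104 against 88, 102 and 139 (-0.26 ± 0.12, SE; limma adjusted p = 0.231).

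The larger functional lists had shares of calls near or below that of all common regions. Among T cell transcription factors 20 deep regions were higher and 6 lower, 4.66% of 558, close to the 4.53% of all common regions. Foxp1 had 6 of the higher ones, and Bach2 and Ets1 3 each. The lower calls of the list included a region of Lef1, an effector of Wnt signalling, at chr3:131157321-131157825, with 191, 219 and 232 against 211, 198 and 305 fragments (-0.34, limma adjusted p = 0.0117). Genes of T cell receptor signalling had 17 higher and 0 lower (4.78% of 356), with 4 in Inpp4b, and cytokine receptor genes 3 and 0 (2.83% of 106). Chromatin modifiers had 5 and 2 (3.8% of 184) and adhesion genes 3 and 0 (4.92% of 61). Apoptosis genes had 2 and 0 (4.17% of 48), and clock genes 0 and 1 (1.89% of 53). The clock gene was Arntl, which encodes BMAL1, at chr7:113207692-113207914 with 68, 63 and 77 against 85, 71 and 98 fragments.

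The list for fatty acids, iron and ferroptosis, the metabolism nearest to the targeted gene, had 17 deep regions, of which 3 were higher and 1 lower. Besides the pair in Por these were in Acsl4, which activates polyunsaturated fatty acids, and in Lpcat3, which places them in phospholipids. The Acsl4 region, chrX:142379852-142380271, had 132, 131 and 133 against 63, 70 and 110 fragments (0.50 ± 0.12, SE; limma adjusted p = 0.00955). The Lpcat3 region, chr6:124683654-124684328, had 156, 135 and 150 against 74, 70 and 117 (0.55 ± 0.12, SE; limma adjusted p = 0.00237). The median difference over the 17 was 0.10 on the log2 scale. B cell genes had 2 higher (both in Pax5), myeloid genes 1 higher, and long neuronal genes 2 higher and 1 lower. The share called was 23.5% of 17 in the fatty acid, iron and ferroptosis list and 11.8% of 17 in B cell genes. It was 16.7% of 6 in myeloid genes and 23.1% of 13 in long neuronal genes. These 4 lists hold too few deep regions for a share to be read.

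The median difference of 5 of the 11 lists changed sign with the scaling. The median over T cell transcription factors was 0.03 with quantile normalisation and -0.04 with the fold over background, and that over receptor signalling genes 0.08 and -0.02. Among the 15 genes with the most deep regions, the median was positive under all 5 scalings tried in Inpp4b, Sh3kbp1, Lpp, Maml2 and Atxn1 and negative under all 5 in Akap13, Asap1, Rere, Wwox, Ripor2, Sgms1 and Ets1. It changed sign in Foxp1, Bach2 and Thada. Lpp, a focal adhesion gene, had 31 of 37 deep regions above 0, with a median of 0.27 and 7 higher calls. Atxn1, which encodes a transcriptional repressor, had 26 of 35 above 0, a median of 0.32 and 9 higher calls. Tox, a factor of exhausted T cells, had 17 of 25 above 0 and a median of 0.19, also positive under all 5 scalings, but no call. Of all 15739 deep regions, 8510 were above 0 and 630 (4.0%) were called higher. With the fold over background the counts above 0 were 29 in Lpp, 22 in Atxn1, 15 in Tox and 8144 in all deep regions. The medians were then 0.15 in Lpp, 0.06 in Atxn1, 0.16 in Tox and 0.01 in all deep regions. In the tallest deep region of Tox, chr4:6970400-6970923, the pileups were 104, 109 and 130 against 93, 107 and 131 (-0.18, limma adjusted p = 0.440).

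Some calls lay close together, in runs that were picked out after their values were seen. In Atxn1, 7 higher calls lay within chr13:45837499-45922968, where 17 of 22 common regions had a positive difference. An example is chr13:45837499-45838143, with 68, 52 and 74 against 28, 18 and 40 fragments (0.91 ± 0.19, SE; limma adjusted p = 0.00271). In Tex14 5 higher calls lay within chr11:87422816-87463115, and all 5 were tall, with 159 to 248 fragments in the Res-shFabp7 libraries. Celf2, an RNA-binding protein gene, had 4 higher calls 797.7 to 838.4 kb from its 5′ end, in chr2:6557695-6598802. The run of lower calls with the most deep regions held 4 and spanned Trpm1 and Mtmr10 at chr7:64165006-64327303. There 14 of 17 common regions had a negative difference. Another run of 4 lower calls, across Mast3 and Pgpep1 at chr8:70609390-70792276, held 1 called deep region. Genes with at least 3 higher calls numbered 23, and those with at least 3 lower calls were Dnm3 and Trpm1.

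Per library, deep regions made up more of the strongest peaks with Res-shFabp7. Of the 20000 peaks with the highest pileup, 18.7%, 18.3% and 18.7% were at deep regions in the Res-shFabp7 libraries and 16.7%, 17.2% and 18.2% in the Res-ctrl libraries. The groups did not overlap, at 18.6 ± 0.280% against 17.3 ± 0.760% (SD, n = 3 each; exact permutation test, two-sided p = 0.1, the smallest that 3 against 3 allow), and Res-ctrl replicate 3 lay just below the lowest Res-shFabp7 library. Of all peaks the order was the opposite, 16.4 ± 0.428% against 19.8 ± 1.87% (SD, n = 3 each; exact permutation p = 0.1). With equal numbers of peaks taken from each list the difference shrank from -3.41 to -1.04 percentage points, 19.6% against 20.7%, and the groups still did not overlap.

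Peaks at deep regions were wider with Res-shFabp7, with medians of 246 ± 3.21 bp against 219 ± 19.4 bp, and had a larger fold over background, 10.7 ± 0.0487 against 9.42 ± 0.907 (SD, n = 3 each; exact permutation p = 0.1 for both). In both measures Res-ctrl replicate 3, at 241 bp and 10.5, lay near the Res-shFabp7 libraries, and replicates 1 and 2, the libraries with the lowest background pileup, lay below at 209 and 206 bp and at 8.94 and 8.86. Depth and co-culture cannot be told apart in these 2 measures, nor in the shares of peaks at deep regions given above. Relative to the median of all common regions in the same library, the normalised height of deep regions was -0.33 ± 0.03 in the Res-shFabp7 group and -0.37 ± 0.02 in the control group (SD over 3 libraries in each; two-sided exact permutation p = 0.3), and the groups overlapped. With median centring the difference was 0.07 in place of 0.04 on the log2 scale, and with the authors' fold it was 0.04. Under both of these the groups did not overlap (exact permutation p = 0.1).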

How the data were processed

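ATAC-seq peak lists of 6 libraries, 3 per co-culture, were used. Per the submitters' processing notes, the build was mm10 and the tools were MACS2 2.2.7.1, Bowtie 1.1.2, cutadapt 2.8 and Trim Galore 0.6.5. Any read shift for the transposase, the handling of duplicates and the MACS2 mode were not given in the sources used here. According to the file headers, each list gives peaks at a q-value of 0.05 with a summit pileup (signal, in fragments), a fold (ratio) over the local background and −log10 p and q-values, all deposited by the authors as their own values per library. The pileup holds whole numbers only and is not scaled for depth, so a deeper library has higher peaks. Background pileup was computed here from pileup and fold, with a constant added to the pileup before division by the fold and taken off afterwards. It ranged from 0.608 to 1.03 over the 6 libraries.

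Gene bodies and start windows were taken from RefSeq GRCm38.p6, whose primary assembly is that of mm10. Exons and introns were not used here. The highest peak of each region gave its height, log2 pileups were quantile-normalised over 56599 regions and tested with limma 3.58.1 in R 4.3.3 without a block for replicate number, after the same steps had been tested on simulated data. Groups with 1 value per library were compared by exact permutation, and classes of region within libraries by exact sign flips, both two-sided. No genome was given, so a planned motif search at summits was replaced by one of RefSeq start windows, chosen after the files were seen. The deep regions, gene lists and tests were chosen with earlier results of these data known.

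Genes and regions were named by fixed rules: the 15 genes with the most deep regions, the 10 densest with at least 10, the 10 tallest and 10 widest regions, the 10 with the smallest p in each direction whose groups did not overlap (gene models without a name left out), leading genes of each list, and 12 genes whatever their values. Other genes, among them those in the runs, were named after their values were seen. Some named items are not reported here.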

Additional observations from a re-analysis of the deposited data

How the results depend on the processing

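The number of deep regions stayed within 1.5 times of 15739 under every alternative tried, from 10766 (more than 20 kb from gene ends) to 19813 (more than 5 kb), and from 15997 to 17350 without each library in turn. The number called was 0 with the authors' fold over background (0 higher, 0 lower) and 0 (0 and 0) without Res-ctrl replicates 1 and 2, an alternative chosen after seeing the data. Leaving out each library in turn gave 193 to 958 calls in all, 147 to 793 higher and 46 to 165 lower. The lower calls rose from 164 to 251 when normalised over deep regions alone and to 289 with median centring. The cause of these changes was not tested. Of the 794 calls, 683 were called again from normal scores of ranks, 631 when normalised over deep regions alone and 698 with median centring. The replicate block gave 862 calls (683 higher, 179 lower), 793 of them among the 794. Replicate numbers did not pair the libraries, with correlations of -0.03, 0.03 and -0.03 between same-numbered libraries. The 20 named regions were called in every alternative that tested them except the fold and the fit without Res-ctrl replicates 1 and 2. The height difference between deep and far regions turned from 0.00677 to -0.0998 with the fold. Counts in Sla, Fam107b and Tspan14 fell to 5, 12 and 4 at 20 kb. Pileups of about 10 fragments, as in Slc17a8, rest on few fragments, and depth of the 2 shallow control libraries limits all comparisons of height.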
